A study of Mus musculus with 6 samples.

Results

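H3K27me3, the trimethyl mark on lysine 27 of histone H3, was compared between mouse neural stem cells (NSCs) and their neuronal progeny as stretches of marked chromatin, or union domains. The peak lists of both cell types were merged wherever peaks shared at least 1 bp. This gave 38481 union domains from 26539 NSC peaks and 36053 neuron peaks, of 107854 peaks in the 4 lists of the series. A domain was called shared when both cell types had a peak in it, and otherwise NSC only or neuron only. Shared domains held 133.6 Mb of NSC peaks and 106.3 Mb of neuron peaks, NSC-only domains held 39.5 Mb and neuron-only domains 40.2 Mb.

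Both cell types were of the C57BL/6 strain and the neurons were made from NSCs of the same kind, derived from embryonic stem cells and used at passages 25 to 30. The NSCs, at day 0, grew in Euromed-N with N2, FGF2 and EGF and were RedStar negative. The neurons, at day 11, had spent 4 days in Euromed-N with N2, B27 and less FGF2 and 7 days in N2B27, and were sorted as RedStar positive, a fluorescent protein driven by the Tau promoter. The sort therefore selected cells by the activity of 1 neuronal promoter, and what other cell types it let through is not given in the sources used here. Chromatin was fixed with formaldehyde, sheared to 300 bp and precipitated with an antibody from Upstate, and there was 1 library per cell type with 1 input each. There are thus no replicates, no difference below has a test, and the intervals given (95%, exact) cover counting error only.

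Polycomb repressive complex 2 (PRC2) writes H3K27me3 through its EZH1 and EZH2 subunits, and its EED subunit binds the finished mark, which helps the mark to spread along neighbouring nucleosomes. Proteins of Polycomb repressive complex 1 also bind the mark, and marked genes are usually silent. In stem cells the widest stretches lie over genes for developmental transcription factors and signalling molecules, many of them rich in CG dinucleotides at their start sites, and the mark is rearranged as neural progenitors leave the cell cycle and mature.

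The promoters of 6 genes from the extremes of the comparison show what lay at the start sites of such domains. Each sequence runs from 250 bases before to 50 bases after the RefSeq start, on GRCm38.p6, with CG in capitals. All other coordinates are the deposited ones on mm9, so the positions below are not comparable with them, and the RefSeq start need not be the start in the deposited gene tables. Igf2bp2, of an RNA-binding protein of fetal tissues, and Foxd1, of a forkhead factor, had the lowest and the fourth lowest neuronal read density relative to NSCs among well covered domains named by a gene. Samd5, of a protein with a sterile alpha motif, and Erbb4, of a neuregulin receptor, lay in the longest NSC-only domains, and Aldh1l1, of a folate enzyme of astrocytes, and Kank2, of a cytoskeletal adaptor, in the longest neuron-only ones.
Igf2bp2, chr16:22163250-22163549, minus strand: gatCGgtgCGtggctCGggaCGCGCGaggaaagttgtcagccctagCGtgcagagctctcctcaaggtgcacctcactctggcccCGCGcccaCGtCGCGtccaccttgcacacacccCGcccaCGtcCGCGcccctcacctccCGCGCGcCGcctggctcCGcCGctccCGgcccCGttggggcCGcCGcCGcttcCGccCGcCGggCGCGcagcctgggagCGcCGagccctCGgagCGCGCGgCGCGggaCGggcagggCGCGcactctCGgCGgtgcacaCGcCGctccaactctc
Foxd1, chr13:98353995-98354294, plus strand: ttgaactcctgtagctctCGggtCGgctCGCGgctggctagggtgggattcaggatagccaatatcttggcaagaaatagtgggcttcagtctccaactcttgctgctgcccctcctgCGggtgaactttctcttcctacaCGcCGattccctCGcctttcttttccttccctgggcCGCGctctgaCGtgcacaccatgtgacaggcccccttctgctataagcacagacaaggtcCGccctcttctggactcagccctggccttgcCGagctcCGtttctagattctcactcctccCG
Erbb4, chr1:69108010-69108309, minus strand: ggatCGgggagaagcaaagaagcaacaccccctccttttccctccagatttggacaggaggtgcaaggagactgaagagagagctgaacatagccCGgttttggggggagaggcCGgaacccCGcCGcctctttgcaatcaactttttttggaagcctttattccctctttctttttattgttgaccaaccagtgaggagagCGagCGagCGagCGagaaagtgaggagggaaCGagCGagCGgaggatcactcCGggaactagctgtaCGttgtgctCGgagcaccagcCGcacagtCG
Samd5, chr10:9675159-9675458, minus strand: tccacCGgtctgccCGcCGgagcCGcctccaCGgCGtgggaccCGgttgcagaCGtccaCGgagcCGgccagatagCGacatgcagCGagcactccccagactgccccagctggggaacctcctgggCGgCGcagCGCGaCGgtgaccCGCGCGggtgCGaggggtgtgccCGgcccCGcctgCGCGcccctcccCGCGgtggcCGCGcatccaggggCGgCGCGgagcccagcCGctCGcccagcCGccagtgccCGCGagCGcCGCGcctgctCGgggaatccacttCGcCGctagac
Aldh1l1, chr6:90550543-90550842, plus strand: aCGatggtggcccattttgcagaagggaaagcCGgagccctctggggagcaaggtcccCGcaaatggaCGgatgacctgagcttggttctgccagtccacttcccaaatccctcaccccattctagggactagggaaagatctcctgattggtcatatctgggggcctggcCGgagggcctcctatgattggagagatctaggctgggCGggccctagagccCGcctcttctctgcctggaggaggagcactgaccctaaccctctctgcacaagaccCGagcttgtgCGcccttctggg
Kank2, chr9:21798497-21798796, minus strand: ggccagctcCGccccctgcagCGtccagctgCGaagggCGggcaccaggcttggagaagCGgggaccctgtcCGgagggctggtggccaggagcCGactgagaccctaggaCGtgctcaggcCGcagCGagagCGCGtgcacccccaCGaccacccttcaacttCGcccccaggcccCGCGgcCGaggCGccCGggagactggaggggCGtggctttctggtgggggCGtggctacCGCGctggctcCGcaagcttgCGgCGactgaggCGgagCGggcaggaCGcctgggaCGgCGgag
These 6 windows held 47, 15, 17, 43, 9 and 31 CGs in the order shown, against a median of 7 and quartiles of 3 and 20 over all 32851 promoters of the RefSeq table. Each of the 3 pairs therefore joined a promoter with many CGs to one with far fewer. CAGCTG, the E-box of proneural factors, was present on either strand in the Samd5 and Kank2 windows and in 16.3% of all promoters. TTCAGCACC, a part of the REST site, and GAGAGAGA were in none of the 6, and in 0.371% and 3.93% of all promoters. A comparison of promoter composition between classes of domain was void, since only 72.5% of the 2517 genes with a symbol and a start site in a union domain could be matched to a RefSeq promoter, and 77.1% of all genes with a symbol.

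The first question was how much of the marked territory the stem cells and neurons had in common. Of the 38481 domains, 15577 (40.5%) were shared, 8932 (23.2%) were NSC only and 13972 (36.3%) neuron only. By length the common part was larger. Shared domains held 77.2% of the base pairs covered in NSCs and 72.6% of those covered in neurons, with 81.7% and 74.8% of the reads in peaks. The base pairs covered in both came to 90.4 Mb, which is 52.2% of the NSC territory and 61.7% of the neuronal. One-sided domains were short, with a median of 4 kb for NSC only and 2.6 kb for neuron only, beside 7 kb for shared domains. They rested on few reads, 58 over 36 input reads at the median in NSC-only domains and 46 over 20 in neuron-only ones. A start site lay in 14.6% of shared domains, 3.12% of NSC-only and 2.64% of neuron-only ones. With peaks kept only at a false discovery rate (FDR) under 1e-20 in both lists, NSC-only domains outnumbered neuron-only ones, at 3253 to 2315, beside 3387 shared. With only peaks of at least 2000 bp, the NSC-only and neuron-only counts were close, at 10135 and 10339.

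Most one-sided domains lay well apart from the other cell type's peaks. The median distance to the nearest peak of the other cell type was 11.0 kb for NSC-only and 15.2 kb for neuron-only domains. Only 14.7% and 15.2% of them lay within 2 kb of such a peak, and 20.7% and 30.3% lay over 50 kb away. A domain without a peak is not a domain without reads, since reads outside peaks are not in the files used here.

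Length and position went with sharing, as the plot of domain classes by length and distance shows. Of the domains under 2 kb, 1.37% were shared (1.04 to 1.78) and 92.0% were neuron only. The shared share was 20.3% from 2 to 5 kb, 65.4% from 5 to 10 kb, 93.2% from 10 to 20 kb and 99.4% from 20 to 50 kb, and all 121 domains over 50 kb were shared. A union domain takes its length from the peaks of both cell types, so shared domains are longer partly by construction. Of 2928 domains with a start site inside, 77.9% were shared (76.3 to 79.4) and 12.6% were neuron only. Of 10864 domains over 100 kb from any start site, 29.7% were shared (28.9 to 30.6) and 47.4% were neuron only. The difference by position held within lengths. From 2 to 5 kb, 37.6% of domains with a start site were shared (33.8 to 41.6) and 19.7% of those without (19.1 to 20.3), and from 5 to 10 kb, 80.8% (78.1 to 83.3) and 64.0% (63.0 to 64.9).

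**Figure D1:**
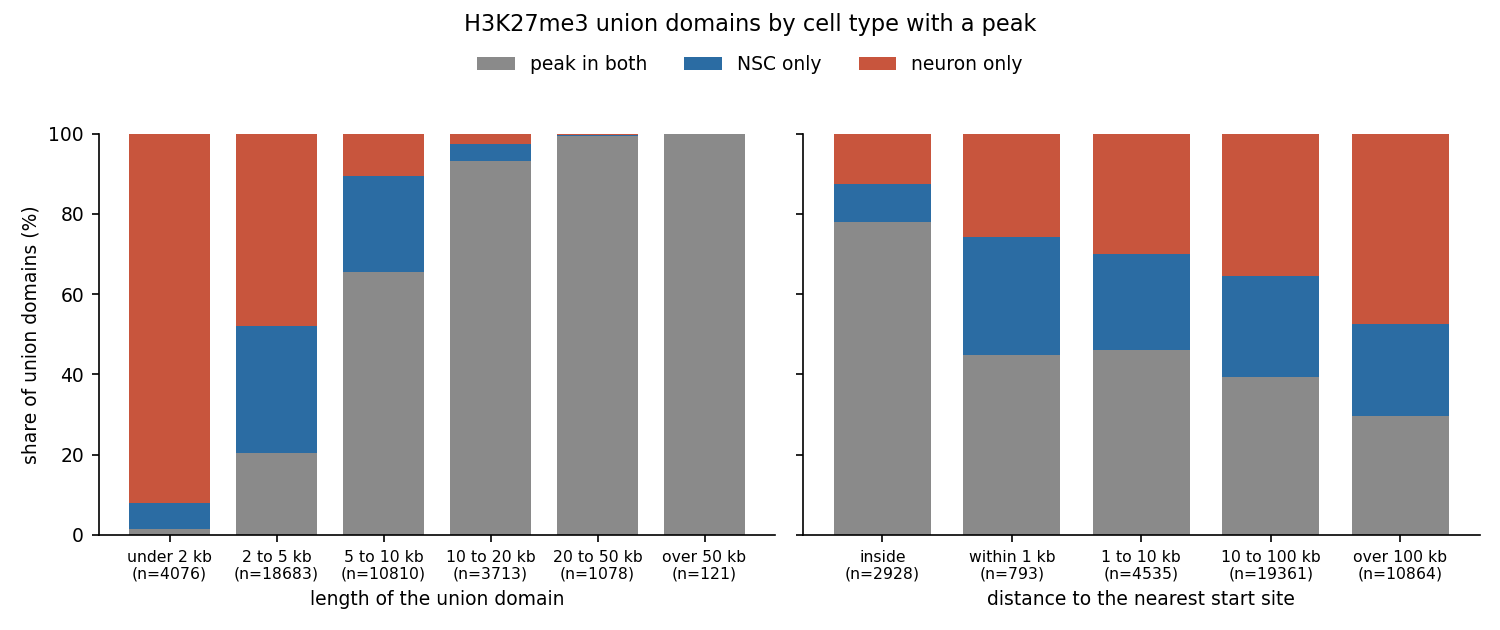
Shares of union domains with a peak in both cell types, in NSCs only or in neurons only, in percent, by length of the domain (left) and by distance to the nearest start site (right), with the number of domains under each bar. The shared share goes from 1.37% under 2 kb to all 121 domains over 50 kb, and from 77.9% with a start site inside to 29.7% over 100 kb away.

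Within shared domains the mark mostly covered less in neurons. The median domain had 6.2 kb covered in NSCs and 4.4 kb in neurons, and the median ratio of covered length, neuron over NSC, was 0.777 with quartiles of 0.533 and 1. Of the 15577 shared domains, 3520 (22.6%, 21.9 to 23.3) were shrunk, which means covered in neurons over 0.5 or less of the NSC length, and 436 (2.8%, 2.55 to 3.07) were grown to at least 2 times that length. The other 11621 were kept. Shrunk domains went from a median of 6.8 kb to 2.4 kb, and grown ones from 2.8 kb to 7.2 kb. In 10630 domains with 1 peak in each cell type, the neuron peak lay within the bounds of the NSC peak in 48.4% and the reverse in 13.4%, and both edges lay further in in 35.7% and further out in 7.39%. Middle-sized domains were shrunk most often, 28.6% from 5 to 10 kb, against 17.7% from 2 to 5 kb, 5.50% from 20 to 50 kb and none of the 121 over 50 kb.

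Among domains named by a gene, the loss was largest at the Hoxd cluster, on chromosome 2 from 74476200 to 74628799, where 151 kb were covered in NSCs and 118.6 kb in neurons. St8sia2, which encodes a polysialyltransferase that modifies the adhesion molecule NCAM, went from 63 to 33.2 kb (chromosome 7, 81127600 to 81191799). Paqr9, of a progestin and adipoQ receptor family member, went from 39.4 to 18.8 kb and Lgals12, of a galectin, from 29.2 to 5.4 kb. Megf11, of a transmembrane protein with EGF-like repeats, went from 22.8 to 4.4 kb, with 558 reads in NSCs and 83 in neurons. The largest gain was at Atxn7l1, an ataxin-7-like gene on chromosome 12 from 33823600 to 33870399, where NSCs had 2 peaks of 5 kb in all with 86 reads and neurons 1 peak of 46.8 kb with 1270 reads. Camk1g, of a calmodulin-dependent kinase of neurons, went from 19.4 to 46.4 kb, 5031434C07Rik from 17.4 to 38.4 kb, the imprinted adaptor gene Grb10 from 15.2 to 28.8 kb and Gm15319 from 20.6 to 33.2 kb. Camk1g lies on chromosome 1, where input reads in peaks stood at 12.9 per kb in NSCs and 11.6 in neurons, against 8.84 and 7.81 on the median of the other autosomes. Gm15319 had 875 reads over 610 input reads in NSCs and 1460 over 1165 in neurons. For the 5 gains in the order named, the centred log2 ratio of reads to input, neuron over NSC, was 0.85, -0.06, 0.32, -0.37 and -0.63.

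**Figure D2:**
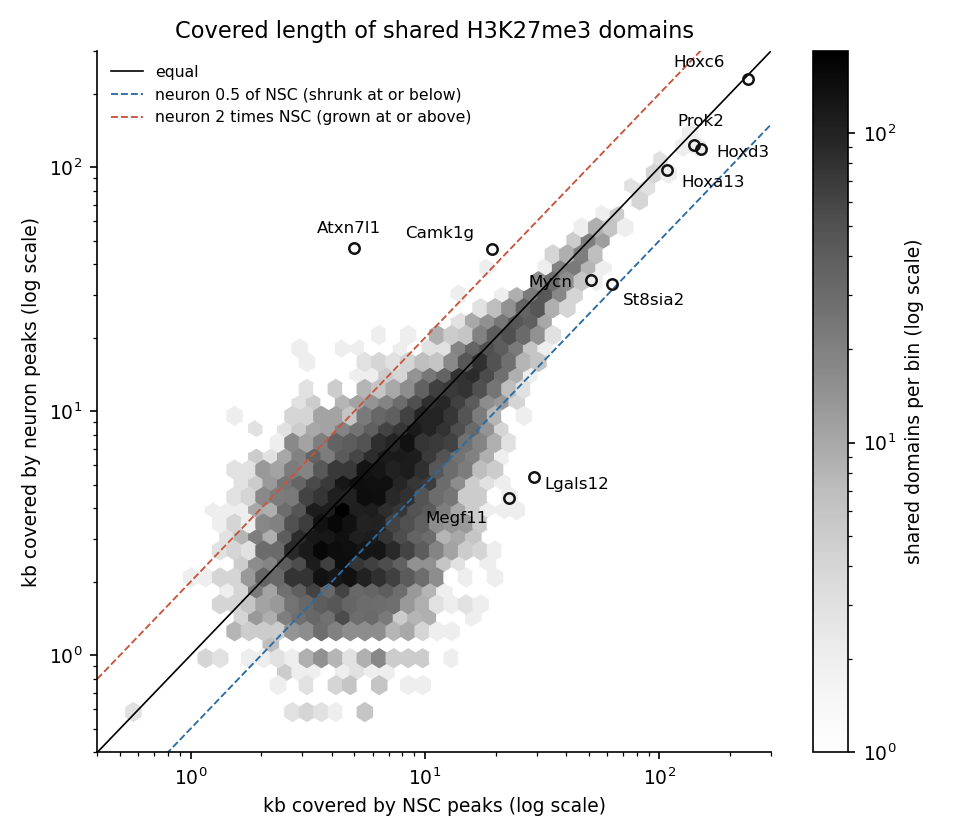
Length covered by NSC peaks against length covered by neuron peaks, in kb on log axes, for the 15577 shared domains, as bins shaded by the number of domains. The median ratio is 0.777, long domains lie close to the line of equal length, and Atxn7l1 and Camk1g stand above the line of a 2-fold gain, Lgals12 and Megf11 below that of a 2-fold loss.

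The long domains kept most of their extent, with a median covered-length ratio of 0.952 over 50 kb, but were cut into more pieces. Of the shared domains, 3743 (24%, 23.4 to 24.7) had more peaks in neurons than in NSCs and are called fragmented, and 674 (4.33%, 4.01 to 4.66) had fewer and are called fused. Fragmentation was seen in 1.29% of domains from 2 to 5 kb, 17.2% from 5 to 10 kb, 48.2% from 10 to 20 kb, 67.2% from 20 to 50 kb and 77.7% over 50 kb. A longer domain has more room for a gap, so this order has no test. Of 13908 domains with 1 NSC peak, 18.2% had 2 neuron peaks and 5.40% had 3 or more. Inside shared domains there were 2030 gaps between NSC peaks and 6504 between neuron peaks, with a median of 1000 bp in both. The smallest gap in both lists was 800 bp, so gaps below that had been bridged before deposition. Where peaks up to 1000 bp apart were put into 1 domain, 3995 shared domains (30.3%) were fragmented and 1124 fused. Pieces were still counted as deposited peaks there, so how many domains would stay fragmented with such gaps bridged was not tested. Gaps of up to 1000 bp made up 69.5% of those in NSCs and 55.3% of those in neurons.

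The Hox clusters, arrays of homeobox genes that specify position along the body axis, lay in 5 domains. At Hoxd, NSCs had 2 peaks, of 143.4 and 7.6 kb. Neurons had 17, of which the longest, 57 kb, began 3.6 kb into the domain, and none of the other 16 was longer than 7.6 kb. The start sites of Hoxd13 to Hoxd10 lay in windows of 5 kb to each side that stayed covered throughout in neurons, while the window of Hoxd3 was covered over 3614 bp, that of Hoxd4 over 4400 bp and that of Hoxd1 over 6638 bp. NSCs covered these 9 windows throughout. The Hoxa13 domain went from 1 to 10 peaks over 107.4 and 97.4 kb, and the Hoxc6 domain from 1 to 9 over 239.2 and 229.2 kb. The Hoxb1 domain had 1 peak in both cell types, of 127.8 and 128.4 kb, and the start-site windows of all 10 Hoxb genes scored stayed covered throughout.

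Among other genes, the MYC family member Mycn had 1 NSC peak of 51.2 kb and 9 neuron peaks covering 34.4 kb, on chromosome 12 from 12946200 to 12997599. The domain of Prok2, of the secreted ligand prokineticin 2, went from 3 to 12 peaks over 140 and 123.2 kb. Fusion was rarer and smaller. Tmtc4, of a mannosyltransferase, went from 4 peaks to 1 with 19 and 20.2 kb covered, Khdrbs2, of an RNA-binding protein, from 4 to 2 with 23.4 and 33.2 kb, and Pax3, of a neural crest factor, from 4 to 2 with 129.8 and 132 kb.

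**Figure D3:**
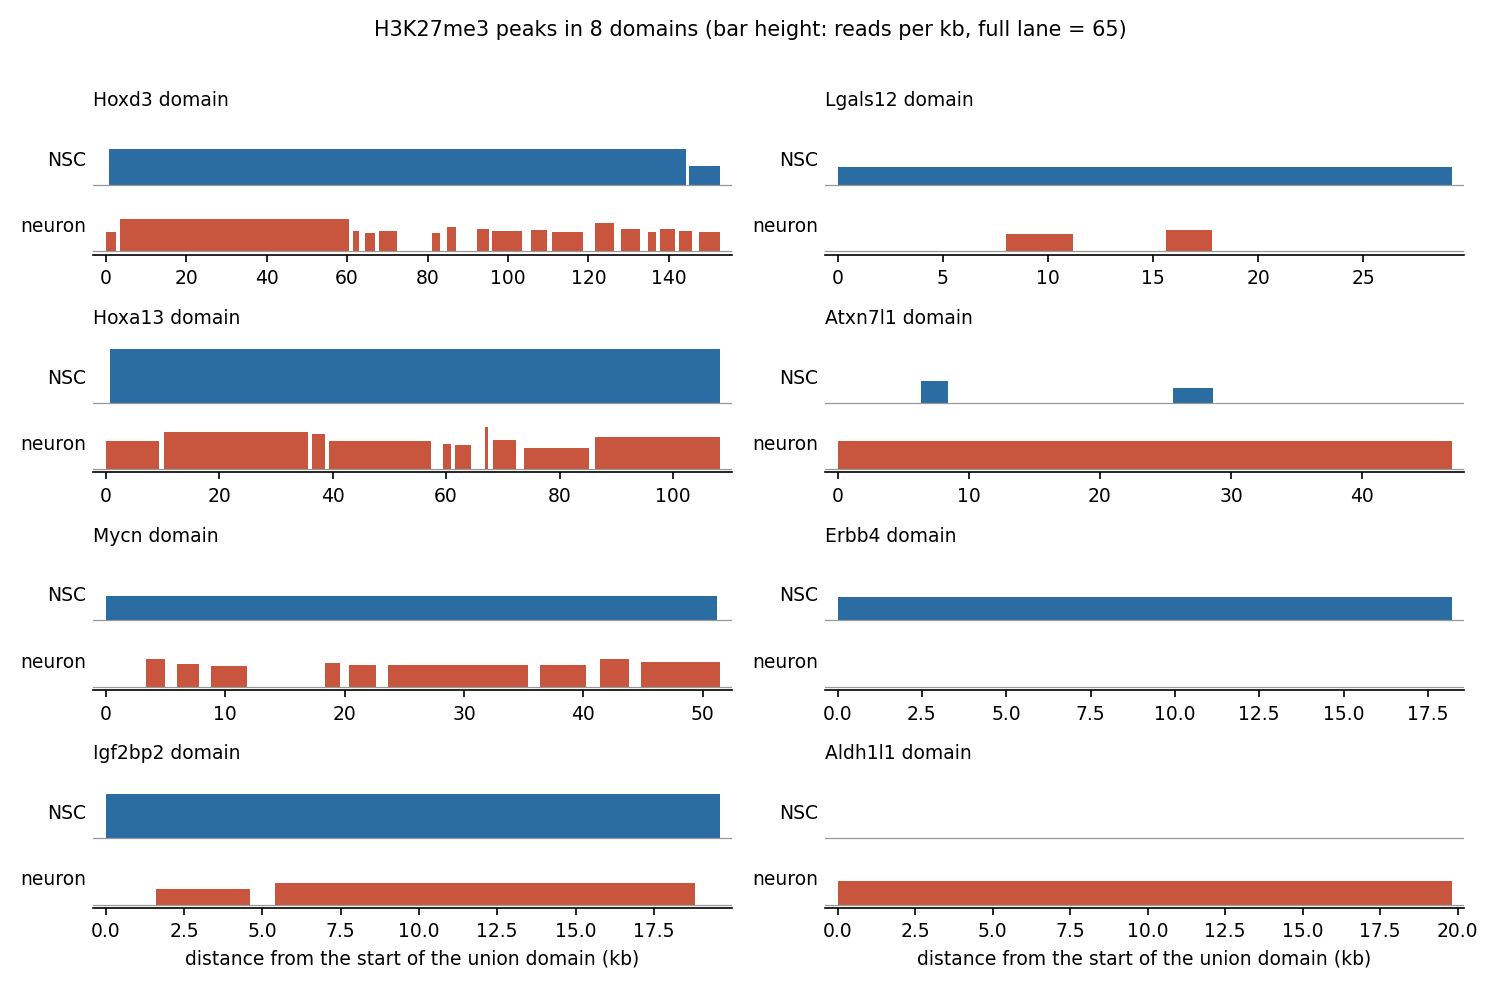
H3K27me3 peaks in NSCs (upper lane) and neurons (lower lane) along 8 domains, by distance in kb from the start of the union domain, with the height of each bar giving reads per kb of that peak. Hoxd3, Hoxa13 and Mycn have 17, 10 and 9 neuron peaks where NSCs have 2, 1 and 1, Atxn7l1 has 1 neuron peak of 46.8 kb, and Erbb4 and Aldh1l1 have peaks in 1 cell type.

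Read density was compared as reads per covered kb, neuron over NSC, on the log2 scale and centred on the median of shared domains. Before centring neurons stood at 1.17 times the NSC value, and input reads per kb at 0.867 times. Of 15575 domains with at least 20 reads in each library, 637 (4.09%) were lower in neurons past 1.5-fold and 498 (3.2%) higher. These 2 counts depend on the centre. With the 114 domains of identical bounds as reference every value moved up by 0.14, which left 298 lower and 1208 higher, so that lower domains made up 19.8% of those past the threshold in place of 56.1%. With reads over input reads there were 1489 lower and 1641 higher. The balance of lower and higher domains thus depended on the reference, while a change of centre moves all domains alike and leaves their order.

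The longest domains had the lowest relative density. The median was -0.18 under 2 kb (55 domains), 0.00 from 2 to 5 kb, 0.04 from 5 to 10 kb, -0.03 from 10 to 20 kb, -0.13 from 20 to 50 kb and -0.32 over 50 kb, and over 50 kb 19.8% were lower and none of the 121 higher. It stayed below 0 over 50 kb with identical bounds as reference (-0.18) and with reads over input (-0.27). It was -0.15 when peaks up to 1000 bp apart were merged first, which put 293 domains over 50 kb, and -0.08 with 5000 bp. By position the median was -0.16 with a start site inside, -0.11 within 1 kb, -0.03 from 1 to 10 kb, 0.02 from 10 to 100 kb and 0.07 beyond. Of the domains with a start site inside 11.4% were lower, against 1.73% over 100 kb away. With identical bounds as reference the value with a start site inside was -0.02.

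The domains densest in NSCs were those with the lowest ratio, and this comparison uses the NSC reads on both sides. In 5 groups of equal size by NSC reads per kb the medians were 0.28, 0.12, 0.00, -0.12 and -0.35, and 18.8% of the densest group were lower but 0% of the 2 sparsest. Ranked by neuron reads per kb the order turned, from -0.13 in the sparsest to 0.11 in the densest group. Ranked by the geometric mean of both, it ran from 0.09 to -0.22, with 14.3% lower in the densest group. The spread of density was wider in NSCs, with a standard deviation across domains of 0.37 on the log2 scale and 0.27 in neurons. The densest 1% of shared domains began at 37.7 reads per kb in NSCs and 34.2 in neurons, though the median was 17.0 and 20.4. The medians of domains with and without a start site differed little within these NSC groups. In the densest group the medians were -0.38 and -0.33, though 24.1% and 16.0% were lower. Within lengths, not matched for NSC density, the medians differed more. They were -0.25 and -0.06 from 20 to 50 kb, and -0.41 and -0.20 over 50 kb.

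**Figure D4:**
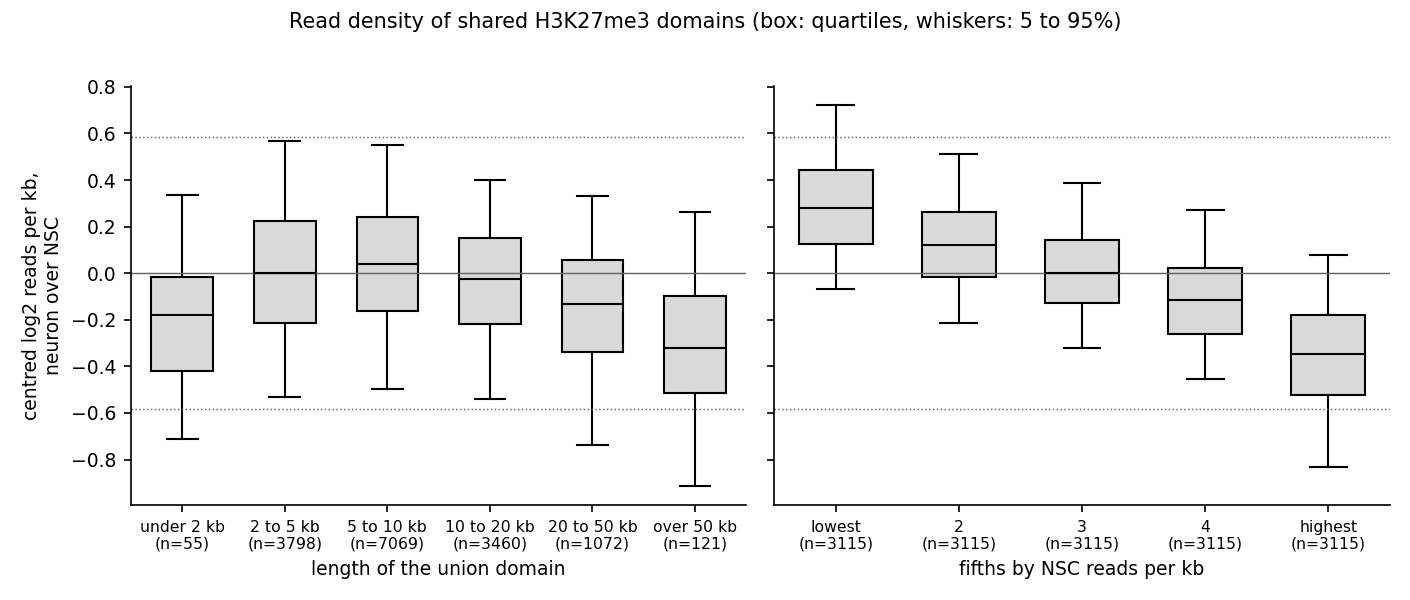
Centred log2 reads per kb, neuron over NSC, of shared domains by length (left) and in 5 groups by NSC reads per kb (right). Boxes give quartiles, whiskers the 5th and 95th percentiles, dotted lines 1.5-fold, and the median goes to -0.32 over 50 kb and from 0.28 in the sparsest to -0.35 in the densest NSC group.

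The lowest ratios of neuronal to NSC density, among domains named by a gene with at least 200 reads in each library, were at Igf2bp2, Igf2bp3, Six6, Foxd1 and Hoxa13. The Igf2bp2 domain (chromosome 16, 22152000 to 22171599) had 849 reads over 19.6 kb in NSCs and 327 over 16.4 kb in neurons, or 43.3 and 19.9 reads per kb, a centred ratio of 0.392 (0.344 to 0.446). Its paralogue Igf2bp3, on chromosome 6 from 49154200 to 49180199, had 51.3 and 25.2 reads per kb, a ratio of 0.418 (0.379 to 0.461). The domain of Six6, an eye field homeobox gene that shares it with 4930447C04Rik, had 53.4 and 29.5, and Foxd1 had 46.9 and 26.8. The Hoxa13 domain had 52.6 and 30.1, a ratio of 0.488 (0.466 to 0.510). The 5 highest ratios were at Gli2, of a hedgehog effector (15.2 and 24.4 reads per kb, ratio 1.37, 1.19 to 1.57), the ubiquitin ligase gene March11 (ratio 1.35), 5031434C07Rik (1.32), Sdk2, of a synaptic adhesion molecule (1.29), and Dbh, of the noradrenaline enzyme dopamine beta-hydroxylase (1.28). None of these 5 reached 1.5-fold, and at Sdk2 the centred log2 ratio of reads to input was -0.01.

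The start sites gave the link to genes. Of the 18778 genes in the deposited tables, 3473 had a start site in a union domain, and their sites were covered by a peak in both cell types at 2034, in NSCs alone at 860 and in neurons alone at 579. Of the 2894 covered in NSCs, 29.7% were not covered in neurons, and of the 15884 not covered in NSCs, 3.65% were covered in neurons. A site without a peak over it can still lie near one. Of the 860 sites covered in NSCs alone, 566 lay in shared domains and 326 had a neuron peak within 1 kb. Of the 579 covered in neurons alone, 190 lay in shared domains and 150 had an NSC peak within 1 kb. By domain, 294 of the 3473 genes lay in an NSC-only domain (8.47%), 422 in a shrunk one (12.2%), 47 in a grown one (1.35%) and 389 in a neuron-only one (11.2%). In 330 shrunk domains with 1 start site that NSCs covered, 152 of the sites were still covered in neurons (46.1%, 40.6 to 51.6), while 34.2% of the base pairs of these domains remained.

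Developmental regulators stayed in shared domains but with lower density. The lists named here were chosen with earlier results of these data known. Of 38 Hox genes scored, 33 had a start site in a domain, in 5 domains, and all 33 were lower past 1.5-fold, with a median of -0.88 and 46.7 reads per kb in NSCs and 28.9 in neurons. For all genes in shared domains, 380 of 2790 were lower (13.6%), 34 higher (1.22%), and the median was -0.18. The background among genes in the densest NSC group was 378 of 1425 lower with a median of -0.40, and all 33 Hox genes lay in that group. It is not matched to the Hox genes in NSC density. The group spans 21.1 to 872 NSC reads per kb, and its domains with a start site had a median of 26.1. With identical bounds as reference 24 of the 33 were lower, the 9 Hoxd genes being the exception, and with reads over input all 33 were. The 33 genes share 5 domains and are not 33 separate observations.

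Brain patterning factors were alike in kind. Of 34 scored, 22 were in a domain and all 22 domains were shared, 13 of them lower, with a median of -0.62 and a covered-length ratio of 0.936. Mesoderm and endoderm regulators had 23 of 29 in a domain, 21 shared and 14 lower, with a median of -0.71, and Gata4, of a heart and gut factor, had 43.6 and 27.2 reads per kb. Neuronal transcription factors had 22 of 39 in a domain, 20 shared and 11 lower, with a median of -0.72. Among them the proneural gene Neurog1 had 866 and 456 reads, 42.0 and 25.6 per kb, and Eomes, of intermediate progenitors, 33.7 and 20.4 per kb over 8.6 and 9.4 kb. Bcl11b, of a factor of deep-layer cortical neurons, was the 1 NSC-only member, with 10.4 kb and 187 reads, and Dlx1, of interneurons, the 1 neuron-only one, with 3.2 kb. Gata4, Neurog1, Eomes and Dlx1 are named after their values were seen. With identical bounds as reference the lower counts were 4, 10 and 10 for these 3 lists, and with reads over input 9, 9 and 14. All 3 medians stayed below 0. In the densest NSC group alone, 13 of 20 patterning factors, 14 of 20 mesoderm and endoderm regulators and 11 of 18 neuronal factors were lower, with medians of -0.64, -0.72 and -0.74, beside the 378 of 1425 given above. These differences from all genes were not tested. Nor is that background matched in NSC density, which enters the ratio. Shared members of the 3 lists had medians of 34.1, 35.4 and 33.6 NSC reads per kb. Domains with a start site in the densest group had 26.1.

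Few members of these lists were shrunk, 3 patterning factors and 0 in the other 2 lists. Lmx1b, of a midbrain and hindbrain factor, went from 18.2 to 6 kb, Vax1, of the ventral forebrain, from 16.2 to 7.6 kb and Dbx1, of spinal interneuron progenitors, from 10 to 2.2 kb. Fezf2, of corticospinal neurons, went from 116.4 to 102.8 kb and from 4 to 9 peaks. Pou4f1, of sensory neurons, went from 22.8 to 16.2 kb, with nothing covered in neurons within 5 kb of its start site. The domain of Pdx1 and Cdx2, of pancreas and gut, went from 58.6 to 53 kb and from 1 to 6 peaks, and Tbx20, of the heart, from 20.6 to 13.8 kb and from 1 to 5. Cdx1, of the posterior gut, was NSC only, with 6.6 kb and 92 reads over 55 input reads, and so was T (brachyury), named after its value was seen.

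Secreted morphogen ligands were near the background of dense NSC domains. Of 35 scored, 28 were in a domain, 27 shared and 5 lower, with a median of -0.41 and -0.27 with identical bounds as reference. Of the 27, 23 lay in the densest NSC group, 5 of them lower with a median of -0.45, beside 378 of 1425 and -0.40 for all genes there. The 5 were Nog, of the BMP antagonist noggin, Fgf9, Fgf4, Shh and Fgf3, named after their values were seen. Nog had 38.5 reads per kb in NSCs and 19.5 in neurons. Gdf7, a BMP ligand, went from 17.6 to 10.4 kb, and the Wnt ligands Wnt11 and Wnt2 from 13.6 to 7.8 and from 21.2 to 15.8 kb. Wnt5b was neuron only, with 5.4 kb and 135 reads.

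**Figure D5:**
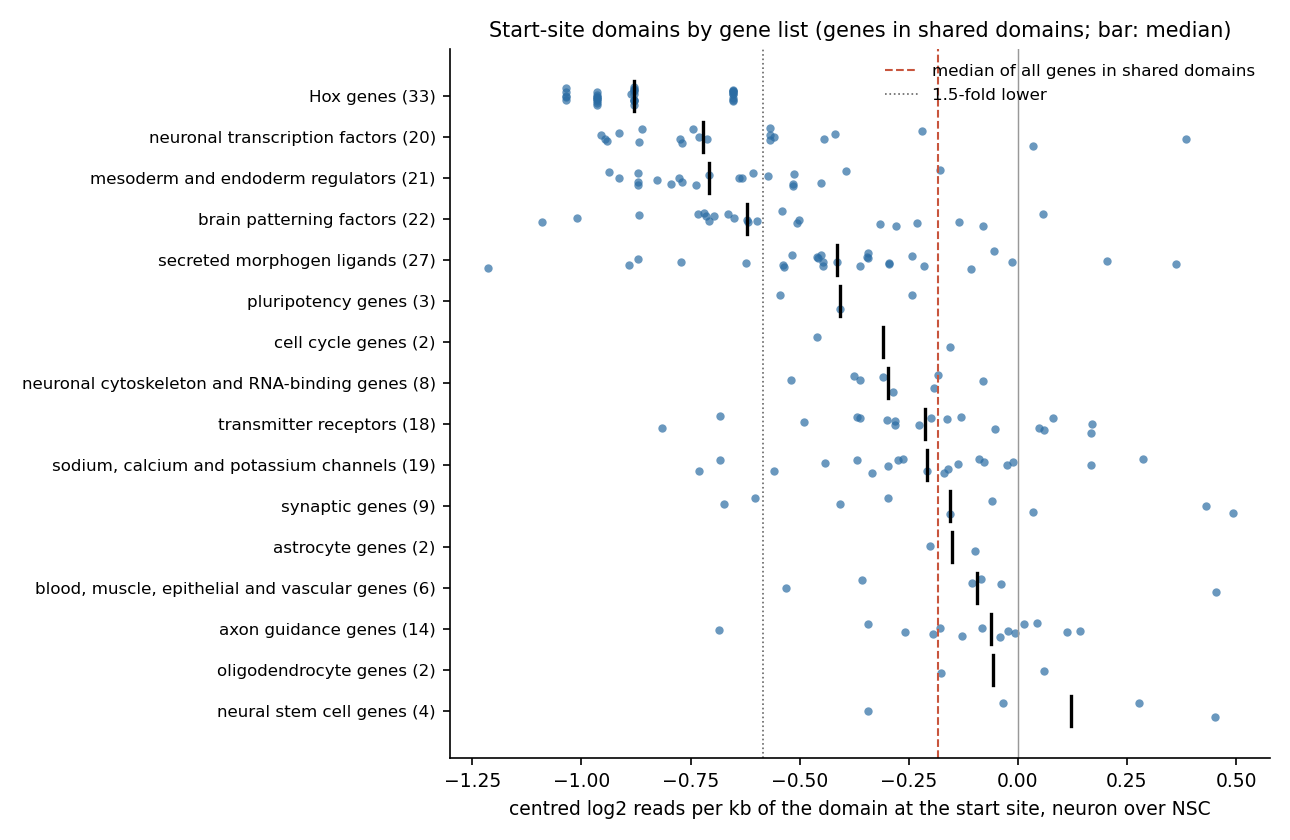
Centred log2 reads per kb of the domain at each gene's start site, neuron over NSC, for genes in shared domains, by gene list with the number of genes, each point a gene and each bar the list's median. Hox genes share 5 values, at a median of -0.88, and neuronal, mesoderm and endoderm and patterning factors lie below the median of all genes (-0.18).

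Among genes of mature neurons some start-site domains had no neuron peak. Of 12 synaptic genes in a domain, 3 were NSC only. These were Nlgn1, of a postsynaptic adhesion molecule (9.2 kb, 129 reads), Shank1, of a postsynaptic scaffold (7.8 kb, 133 reads), and Camk2a, of a synaptic kinase (7 kb, 98 reads). Input reads in the same 3 NSC peaks were 89, 51 and 86, in that order. Of these 12, 11 start sites were covered in NSCs and 5 in neurons, with 7 lost and 1 gained. A lost site has no neuron peak over it but can have one nearby. The lost sites of Slc17a7, Cplx2, Pclo and Sv2b lay in shared domains, with a neuron peak 81, 314, 1022 and 1066 bp away. These genes are named after their values were seen. Within 5 kb of the start sites of the 32 list members scored, 97.3 kb were covered in NSCs and 56.6 kb in neurons. For all genes 29.7% of the covered sites were lost by the same count. The windows of all genes held 0.816 times the NSC length in neurons, beside 0.582 times for the synaptic list. Slc17a6, of the vesicular glutamate transporter VGLUT2, went the other way, from 5.4 to 14 kb. The median density of the 9 in shared domains was -0.15, -0.01 with identical bounds as reference. Among 12 neuronal cytoskeleton and RNA-binding genes in a domain, 3 were NSC only. They were Stmn3, of a stathmin (6.6 kb, 140 reads), Tubb3, of neuronal beta-tubulin (5.6 kb, 107 reads), and Ina, of the neurofilament protein internexin (3.6 kb, 86 reads). Their input reads were 68, 51 and 43, in that order, and Ina is named after its value was seen. Stmn4, a stathmin gene, and Celf4, of an RNA-binding protein, were shrunk, from 18.6 to 8.4 and from 14 to 6.4 kb. Nefh, of the heavy neurofilament, went from 20.6 to 13.2 kb. These shares of 3 in 12 stand beside 8.47% for all genes in a domain, and the difference was not tested.

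Channel and transmitter receptor genes in a domain were mostly in shared ones. So were all genes in a domain, of which 80.3% were shared, 8.47% NSC only and 12.2% shrunk. In a domain were 53.8% of 39 channel, 61.3% of 31 receptor and 43.6% of 39 axon guidance genes scored, against 18.5% of all genes. Of 21 channel genes in a domain 19 were shared, none was NSC only and none shrunk, and 10 were fragmented, beside 42% of all 2790 genes in shared domains fragmented and 5.63% fused. Kcna6, of a potassium channel, went from 40.8 to 29.4 kb, with 4 neuron peaks, Cacna2d3, of a calcium channel subunit, from 25.8 to 21.2 kb, and Kcnq5, of a potassium channel, was neuron only with 4.2 kb. Of 19 receptor genes 18 were shared and 1, Htr2a of a serotonin receptor, was shrunk, from 17 to 7.8 kb. Grik3, of a kainate receptor, went from 15.2 to 9.8 kb, and Drd1a, of a dopamine receptor, from 11.4 to 6.6 kb. Of 17 axon guidance genes in a domain 14 were shared (82.4%), which is near the share for all genes, and Nrp2, of a semaphorin receptor, was the 1 NSC-only member, with 9.4 kb and 190 reads. Epha7, of an ephrin receptor, went from 16.6 to 22 kb at 31.8 and 23.2 reads per kb. The median densities were -0.21 for channels, -0.21 for receptors and -0.06 for axon guidance genes, beside -0.18 for all genes, and the last was 0.08 with identical bounds as reference.

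In a domain lay 16.7% of astrocyte, 50% of oligodendrocyte and 14.3% of neural stem cell genes scored, beside 18.5% of all genes. The 4 astrocyte genes had more covered in neurons, and the other 2 lists went both ways. Aldh1l1 had a neuron peak of 19.8 kb with 452 reads, on chromosome 6 from 90427000 to 90446799, and no NSC peak within 16.0 kb of its start site. Gja1, of connexin 43 in astrocytes, went from 3 to 10.6 kb with 51 and 184 reads, Gjb6, of connexin 30, from 10.2 to 14.8 kb, and Chi3l1, of a secreted glycoprotein, was neuron only with 3.4 kb. These were the 4 of 24 scored astrocyte genes in a domain. Covered length within 5 kb of the start sites summed over the 24 was 13.2 kb in NSCs and 45.1 kb in neurons. Of the oligodendrocyte genes, Cldn11, of a myelin claudin, was neuron only with 6.6 kb, Ugt8a, of the galactolipid enzyme, went from 15.6 to 18.8 kb, Mobp, of a myelin protein, from 13.4 to 3 kb, and Mbp, of myelin basic protein, was NSC only with 2.4 kb. The windows of the 8 oligodendrocyte genes scored held 20.9 kb in NSCs and 19.6 kb in neurons. Neural stem cell genes in a domain numbered 4 of 28. These were Gli2, Gli3 (3.6 and 4.4 kb), Sox1, of a neural progenitor factor (39.8 and 37.6 kb), and Prom1, of the stem cell surface protein CD133 (6.4 and 3 kb). The windows of all 28 held 38.1 kb in NSCs and 27 kb in neurons. Ccnd2, of cyclin D2, was neuron only, with 8.6 kb and 219 reads, whereas Cdk6, its kinase partner, went from 34.2 to 20 kb. Of the genes of Polycomb subunits, 2 of 28 lay in a domain, Cbx7 (8 and 4.4 kb) and Phf19 (neuron only, 2.6 kb). Housekeeping genes had 0 of 20 in a domain.

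Genes fixed as cell type markers were checked for the mark at their start sites, which says nothing of their RNA. The 5 NSC markers (Nes, Sox2, Hes5, Vim and Fabp7) were covered in neither cell type. Of 7 neuron markers scored, Tubb3 was covered in NSCs alone, Stmn2 in both and 5 in neither. For Mapt, whose promoter drove the reporter, the nearest peak stood 96 bp from the start site in NSCs and 4305 bp away in neurons. Aldh1l1 was the 1 of 3 astrocyte markers covered, in neurons alone, and Mbp, the 1 oligodendrocyte marker scored, was covered in NSCs alone. The 3 pluripotency markers (Pou5f1, Nanog and Zfp42) were absent from the deposited gene tables, so they could not be scored. Of the lists for other tissues, blood, muscle, epithelial and vascular genes had 8 of 14 in a domain, among them Csf1r (5.4 kb) and Cdh5 (4.8 kb), of macrophages and endothelium, as NSC only, Tal1 (6.8 and 3.2 kb) and Cdh1 (8.6 and 5.2 kb). Of 14 pluripotency genes listed only 7 were scored. In a domain were 3 of these 7, Lin28a (10.2 and 7.2 kb), Utf1 (8.2 and 9.6 kb) and Tfcp2l1 (6.6 kb in both).

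The longest one-sided domains with a gene were single peaks. In NSCs alone they were Samd5 (20.4 kb, 281 reads, chromosome 10, 9381400 to 9401799), Erbb4 (18.2 kb, 421 reads, chromosome 1, 69148400 to 69166599), Eya1, of a transcriptional phosphatase of ear and kidney (14.2 kb), 1700019G17Rik (14 kb) and Scg2, of the secretory granule protein secretogranin II (11.6 kb). In neurons alone they were Aldh1l1, Kank2 (18.2 kb, 488 reads, chromosome 9, 21588400 to 21606599), Csrp1, of a LIM protein of smooth muscle (17 kb), 3100002H09Rik (16.4 kb) and Igfbp2, of a binding protein for insulin-like growth factors (15.2 kb). Their densities ran from 13.8 to 23.4 reads per kb in the NSC-only and from 22.8 to 29.6 in the neuron-only group. In the order named, the NSC-only domains had 281, 421, 293, 327 and 166 reads over 178, 247, 193, 150 and 153 input reads. The neuron-only ones had 452, 488, 503, 437 and 385 reads over 173, 140, 182, 127 and 159 input reads.

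H3K4me3, the mark of active and poised start sites, was used as a readout that did not enter the domains. The neuron H3K4me3 library held 983266 reads in peaks and the NSC library 3623654, so a loss of H3K4me3 and the lower enrichment of that library cannot be told apart. Of 1449 genes with a start site in a union domain and H3K4me3 in NSCs, 49.8% had none in neurons (47.2 to 52.4), against 9.11% of 11769 genes outside domains (8.59 to 9.64). Among the domains the share was 32.2% of 118 genes in NSC-only ones (23.9 to 41.4), 50.3% of 163 in shrunk ones (42.4 to 58.2), 52.2% of 958 in kept ones (49.0 to 55.4), 59.1% of 22 in grown ones (36.4 to 79.3) and 47.3% of 188 in neuron-only ones (40 to 54.7). By start site, the share was 32.9% of 316 with an H3K27me3 peak over the site in NSCs alone (27.8 to 38.4). It was 57.7% of 878 with one in both (54.4 to 61.0) and 43.5% of 255 with one in neurons alone (37.4 to 49.9). Density differed with H3K4me3 too. Shared domains holding H3K4me3 peaks in both cell types had a median of -0.25 with 18.9% lower, and those without any had 0.02 with 2.38% lower. With a start site inside, the medians were -0.31 with H3K4me3 in both, -0.25 in NSCs only, -0.03 in neurons only and -0.06 with none. Domains with H3K4me3 in both were denser in NSCs to begin with (24.2 reads per kb, against 18.2 with none), and the part of that in the ratio was not tested.

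Chromosomes differed in these measures along with their input. On chromosome X, 48.2% of 191 domains were NSC only and 21.5% shared, the median covered-length ratio was 0.611 and 14.7% of the base pairs marked in NSCs were also marked in neurons. On the autosomes other than chromosome 1 the NSC-only share ran from 18.3 to 30.9%, the ratio from 0.699 to 0.819 and the retained part from 41.4 to 59.6%. On chromosome 1, 14.3% were NSC only, the ratio was 0.905 and 67.5% were retained. Input reads in NSC peaks were 4.84 per kb on chromosome X, and their part in these differences was not tested. Without chromosomes 1, X and Y the median ratio over all shared domains was 0.754.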

How the data were processed

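Of 6 samples, the 2 H3K27me3 libraries gave the domains, the 2 H3K4me3 libraries were used as a readout at start sites, and the 2 inputs entered only as the input reads the authors list in each peak. Per the submitters' processing notes, FastQC, Bowtie, SAMtools and SICER were used, with the build mm9. Not given in the sources used here are versions, the handling of duplicates, and the window and gap that SICER ran with. Per peak, the authors deposited a count of immunoprecipitated reads, a count of control reads, a p-value, an FDR (under 0.001 in every listed peak, checked on the files) and a fold over input, all called on each library alone. The authors' p-value and fold ratio were not used as results, and the FDR only as a filter. Peak and gene positions are other deposited columns. Reads in peaks numbered 3272324 in NSCs over 173 Mb and 3161819 in neurons over 146 Mb, at 18.9 and 21.6 reads per kb. Library totals are unknown.

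Peaks were merged at 1 bp overlap. Covered bp, peaks and summed reads and input reads were taken per domain and cell type. Shrunk is a covered-length ratio of 0.5 or less, grown 2 or more, and lower or higher 1.5-fold in reads per kb after centring on the median of shared domains with at least 20 reads in each library. Start sites are gene starts or ends, by strand, in the 4 deposited gene tables, which lean towards genes near peaks. With 1 library per group no test was possible. Intervals are exact (Clopper-Pearson for shares, the matching binomial form for ratios of reads) at 95%. The members and the 18 gene lists were chosen with earlier results of these data known. Of 578 listed symbols 498 were in the tables, 5 of them by an older symbol.

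Genes were named by rule, as 1 gene per domain with its start site inside and nearest the centre. The rule took the 5 largest losses and gains of covered bp, the 5 largest rises and 3 largest drops in peaks, the 5 lowest and highest densities with at least 200 reads, the 5 longest one-sided domains of each kind, and up to 4 members per list by change in covered bp. Hox genes and the fixed cell type markers are named as well, and other names are marked as chosen later. Some genes that the rule names are not reported here. The merging and classing were tested on simulated data, where 200 of 200 planted shrunk domains among 2000 were recovered and 0 others called. Calculations ran in Python 3.11.15 (pandas 2.3.3, scipy 1.17.1, numpy 2.4.6), and figures were drawn with matplotlib 3.10.9.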

Additional observations from a re-analysis of the deposited data

How the results depend on the processing

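Of 58 alternative values for 13 results, 33 stayed within 1.5 times the main one in either direction, and 25 moved further. The balance of NSC-only and neuron-only domains turned with FDR under 1e-20, and that of lower and higher domains with reads over input and with identical bounds as reference. With peaks at FDR under 1e-20 there were 3253 NSC-only, 3387 shared and 2315 neuron-only domains, with 606 shrunk, 74 grown, 640 fragmented, 117 fused, 147 lower and 70 higher, since fewer peaks entered. Merging peaks up to 5000 bp apart gave 4633, 9624 and 6832, with 1478 fused, 302 lower and 241 higher, and merging up to 1000 bp apart gave 1124 fused. Both settings pooled peaks into larger domains, with pieces still counted as deposited peaks. With peaks of at least 2000 bp alone, there were 10135 NSC-only and 10339 neuron-only domains, against 8932 and 13972 in the main setting. With that 2000 bp limit, 296 domains were higher. A 1.5-fold length threshold gave 6075 shrunk and 1052 grown, and a 2-fold density threshold 46 lower and 39 higher. Reads over input gave 1489 lower and 1641 higher, and identical bounds as reference 298 and 1208. Where the settings themselves do not show the cause, it was not tested. Across merging, FDR, length and chromosome settings the median covered-length ratio ran from 0.738 to 0.815, shrunk domains outnumbered grown ones 4.41 to 9.12 times, and the median density over 50 kb ran from -0.36 to -0.08. No paired analysis was possible because each cell type had 1 library and the groups share only replicate number 1. Differences between the cell types and between these 2 libraries cannot be told apart, and shallow domains, with medians of 58 and 46 reads, limit what absence of a peak means.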
